A study of Mus with 3 samples.

Results

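Lung neutrophils were described here in single-cell RNA data from whole lung of female mice aged 6 to 12 weeks. The 3 groups were mice with the DJ-1 KO genotype challenged with ovalbumin (DJ-1 KO OVA), wild-type mice challenged with ovalbumin (WT OVA) and wild-type mice given PBS in its place (WT PBS). Ovalbumin is an egg protein used as a model allergen, PBS is the buffer control, and DJ-1 is the redox-sensitive protein encoded by Park7. A group is a single library that pools cells of 3 mice. Differences between groups therefore have no replicate check and none was tested. Barcodes were kept when they had 200 genes or more and no more than 20% mitochondrial UMIs (unique molecules), and the smaller cell of any barcode found in both DJ-1 KO OVA and WT PBS was left out. Kept cells counted as neutrophils when S100a8 and S100a9 together made up at least 3% of their UMIs, when they held at least 1 UMI of Csf3r, Retnlg, Cxcr2 or Il1r2, and when they held none of Cd3d, Cd3e, Cd3g and Cd79a. This gave 1381 neutrophils among 14441 kept cells, of 15628 barcodes in all. There were 178 in DJ-1 KO OVA, 631 in WT OVA and 572 in WT PBS.

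Neutrophils are short-lived granulocytes that leave the bone marrow in large numbers and are held in the lung's small vessels as well as recruited into its tissue. They follow chemokines that bind CXCR2, formylated peptides, complement fragments and lipid mediators, and they answer microbial and cytokine signals through NF-kB by secreting chemokines of their own. Their granule proteins are made in stages while the cells mature in the marrow, so mature cells carry the proteins but little of the mRNA. S100a8 and S100a9 encode calprotectin, the main cytosolic protein of neutrophils.

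Neutrophils took the smallest share of kept cells in DJ-1 KO OVA and the largest in WT PBS. The share was 4.01% (3.45 to 4.63) of 4441 cells in DJ-1 KO OVA, 10.4% (9.60 to 11.2) of 6092 cells in WT OVA and 14.6% (13.5 to 15.8) of 3908 cells in WT PBS. Brackets hold 95% intervals, Clopper-Pearson for shares, exact Poisson for levels and exact conditional binomial for ratios, and they cover counting error only. Those for levels and ratios take each UMI as an independent draw, so they are too narrow where a few cells hold many UMIs. The 3 share intervals did not overlap. Per 100 B cells, chosen by at least 3 UMIs of Cd79a, Cd79b and Ms4a1, there were 61.2 neutrophils in DJ-1 KO OVA, 70.2 in WT OVA and 91.4 in WT PBS, which keeps the order with smaller gaps. Cells with a UMI of Rag1 or Dntt, genes of lymphocyte progenitors, made up 20.4% of kept cells in DJ-1 KO OVA, 0.295% in WT OVA and 1.15% in WT PBS. Without them the neutrophil share was 4.92% (4.23 to 5.69) in DJ-1 KO OVA, 10.4% (9.63 to 11.2) in WT OVA and 14.8% (13.7 to 15.9) in WT PBS.

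UMIs per cell differed between the libraries, in neutrophils and in other cells alike. Neutrophils had medians of 996.5, 1346 and 2979 UMIs in DJ-1 KO OVA, WT OVA and WT PBS, and of 489, 599 and 962 genes. All kept cells had medians of 1653, 2108.5 and 4128 UMIs in that order. B cells of the same libraries had medians of 1137, 1327 and 3022.5 UMIs in that order, so in DJ-1 KO OVA the neutrophil median was below the B cell median, and in the wild-type libraries the 2 medians were close. No deposited barcode held fewer than 500 UMIs, a limit that lies closest to the neutrophils of DJ-1 KO OVA, whose lower quartile was 877 UMIs against 1140.5 in WT OVA and 2426 in WT PBS. Its part in the shares was not tested. The genes-per-cell limit bore on the shares in the same way. With no limit or with at least 300 genes the neutrophil counts stayed at 178 in DJ-1 KO OVA, at 631 or 630 in WT OVA and at 572 or 569 in WT PBS. A limit of 500 genes left 79 neutrophils (1.93% of kept cells) in DJ-1 KO OVA, 555 (9.46%) in WT OVA and 554 (14.6%) in WT PBS, so the gap between the ovalbumin libraries widened with it. Mitochondrial UMIs were low in all 3, with medians of 0.303% in DJ-1 KO OVA, 0.289% in WT OVA and 0.261% in WT PBS.

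The values that chose the cells differed between libraries too, and are given as a description. S100a8 and S100a9 together had a median of 7.07% of a neutrophil's UMIs in DJ-1 KO OVA, 12.1% in WT OVA and 18.3% in WT PBS. Cells at 20% or more made up 1.12% of neutrophils in DJ-1 KO OVA, 12.4% in WT OVA and 42.1% in WT PBS. Just inside the limit, 21, 27 and 17 cells lay between 3 and 4% in DJ-1 KO OVA, WT OVA and WT PBS, and just outside it 15, 23 and 8 otherwise eligible cells lay between 2 and 3%. Cells at 3% or more that held a CD3 gene UMI numbered 3, 21 and 40, and those with a Cd79a UMI 2, 10 and 15. The cells between 2 and 3% held medians of 855, 3996 and 2532 UMIs in the same order. In CPM, a gene's UMIs per 1000000 UMIs of the library's summed neutrophils, Retnlg, a secreted resistin-like protein, stood at 5827 CPM in DJ-1 KO OVA, 9217 CPM in WT OVA and 12687 CPM in WT PBS. Csf3r, the G-CSF receptor, was nearly level at 2622, 2294 and 2222 CPM. Cxcr2 was at 1240 CPM in DJ-1 KO OVA and at 855 CPM in each wild-type library. Il1r2, the decoy receptor for IL-1, ran 2973, 2177 and 1788 CPM in that order.

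**Figure D1:**
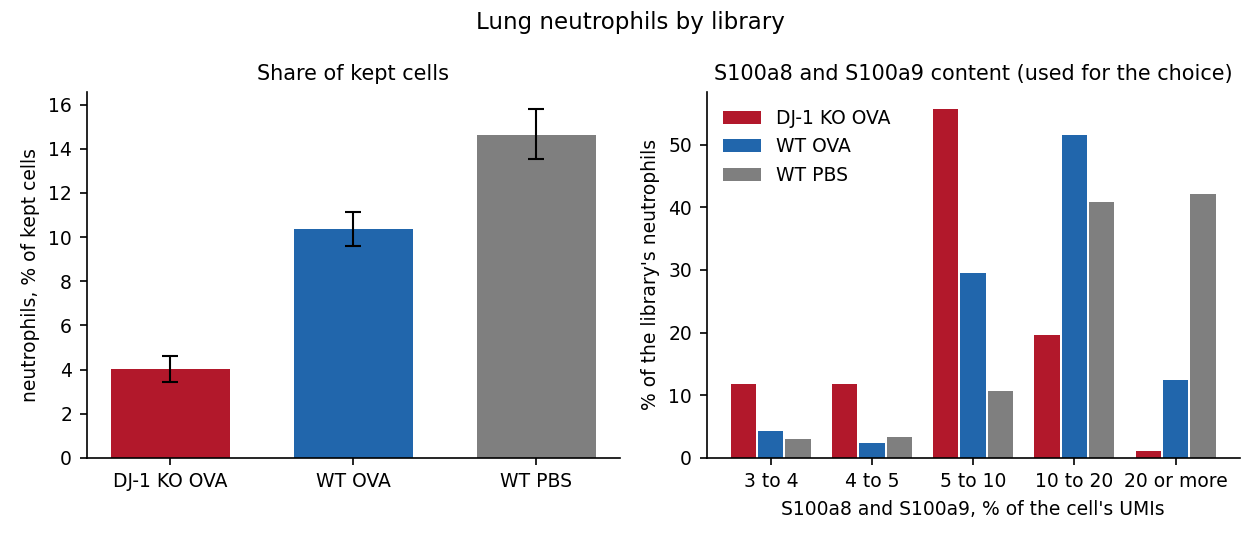
Left, neutrophils as a percentage of kept cells in DJ-1 KO OVA, WT OVA and WT PBS, 1 library each, with 95% Clopper-Pearson intervals as error bars. Right, the percentage of each library's neutrophils in 5 ranges of S100a8 and S100a9 content, a value the choice of cells used. The share is 4.01% in DJ-1 KO OVA, 10.4% in WT OVA and 14.6% in WT PBS, and 42.1% of WT PBS neutrophils lie at 20% or more against 1.12% in DJ-1 KO OVA.

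Genes that the choice did not use were checked for the cell type. Ly6g, a mouse neutrophil surface antigen, was at 44.4 CPM in DJ-1 KO OVA, 77.3 CPM in WT OVA and 116 CPM in WT PBS, with at most 0.428 CPM in B cells of any library. In DJ-1 KO OVA neutrophils 3 UMIs amount to 14.8 CPM, so the Ly6g level there rests on few UMIs. Markers of basophils and mast cells were at 0, for 5 of 5 genes in each library. Of 5 eosinophil markers, Prg2, Epx and Il5ra were at 0 in all 3 libraries, and the list summed to 1 UMI in DJ-1 KO OVA, 10 in WT OVA and 18 in WT PBS. Monocyte markers summed to 222 CPM, 381 CPM and 408 CPM in that order, with Ccr2, F13a1 and Ms4a4c at 0 in DJ-1 KO OVA. Epithelial and erythroid transcripts were present in neutrophils and in B cells alike. Club and goblet markers summed to 2064 CPM in DJ-1 KO OVA, 6769 CPM in WT OVA and 594 CPM in WT PBS neutrophils, against 1667, 21147 and 1980 CPM in the B cells of those libraries. Alveolar type 2 markers were at 429.6, 2451 and 4984 CPM and erythroid markers at 79.0, 7105 and 3566.5 CPM in the same order, with 5975, 9031 and 9261 CPM and 54.6, 5243 and 1283 CPM in B cells. These 3 lists stood lower in DJ-1 KO OVA neutrophils than in WT OVA neutrophils, and their part in the differences given here was not tested. Fibroblast markers summed to 19.8, 427 and 202 CPM, NK cell markers to 9.88, 151 and 127 CPM, T cell markers to 64.2, 25.5 and 15.8 CPM, alveolar macrophage markers to 64.2, 102 and 68.5 CPM, and those of interstitial macrophages, dendritic cells, B cells, endothelium and platelets to at most 74.2 CPM in any library. A total of 372 barcodes occurred in both DJ-1 KO OVA and WT PBS, but these included 0 neutrophils of DJ-1 KO OVA and 2 of WT PBS. Scrublet scores above 0.25 marked 3, 8 and 14 neutrophils as possible doublets in DJ-1 KO OVA, WT OVA and WT PBS.

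The neutrophils of the 3 libraries had much of their profile in common. Azurophil granule genes, which mark the earliest precursors, were all but absent, with Mpo, Elane and Ctsg at 0 UMIs in each library (3 UMIs, the limit a count of 0 allows, would be 14.8, 2.64 and 1.44 CPM in DJ-1 KO OVA, WT OVA and WT PBS) and at most 1 UMI for Prtn3 and Ms4a3. The leading transcripts outside the chosen genes included Il1b, which encodes the cytokine IL-1β and stood at 16400 CPM in DJ-1 KO OVA, 15829 CPM in WT OVA and 14493 CPM in WT PBS. Cxcl2, a CXCR2 ligand, was at 18771, 12366 and 13490 CPM in that order. Hdc, the enzyme that makes histamine, stood near one level at 4203, 4071 and 3592 CPM. Fth1, the ferritin heavy chain, was at 12203 CPM in DJ-1 KO OVA, 11136 CPM in WT OVA and 12216 CPM in WT PBS. The 10 genes used or barred by the choice were left out of every count that follows.

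Knockout and wild-type neutrophils were first compared under the same allergen, which asks how loss of DJ-1 bears on the allergic lung. Chemokines that call monocytes and further neutrophils stood higher in the knockout cells. Of 2820 genes with at least 50 UMIs over both libraries, 134 (4.75%) were at least 2-fold higher in DJ-1 KO OVA and 274 (9.72%) at least 2-fold lower, 408 (14.5%) in all. Over all 2820 genes, 1511 had ratios above 1 and 1309 below 1, beside which the counts for the lists are to be read. Among 8 chemokines with enough UMIs, 4 were past 2-fold higher and 1 past 2-fold lower, and their median log2 ratio was 0.96, beside 0.05 over all genes. The same list had a median of 1.06 in B cells, with 4 of 8 past 2-fold higher, and of 0.48 in all other kept cells, with 3 of 8, so the chemokine difference was not confined to neutrophils. Ccl3 (chr11:83647843-83649378 in RefSeq's GRCm38.p6 annotation, which gives all positions here), an attractant of monocytes, stood at 1565 CPM (1398 to 1748) in DJ-1 KO OVA, 368 CPM (334 to 405) in WT OVA and 330 CPM (306 to 356) in WT PBS. Its ratio of DJ-1 KO OVA to WT OVA was 4.25 (3.66 to 4.93), with the wild-type libraries close together. In all other kept cells the Ccl3 ratio was 1.35.

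Ccl4, a chemokine whose gene overlaps Ccl3 in the RefSeq annotation, was at 1412 CPM in DJ-1 KO OVA, 281 CPM in WT OVA and 460.1 CPM in WT PBS, a ratio of 5.02 (4.27 to 5.91) for the knockout over WT OVA. Whether the counting used strand is not given in the sources used here, so reads of these 2 genes may be mixed where they overlap. A single DJ-1 KO OVA cell held 70 of its 286 UMIs, and leaving out the richest cell of each library gave 4.02. Cxcl3, another CXCR2 ligand, was at 765 CPM, 181 CPM and 152 CPM in DJ-1 KO OVA, WT OVA and WT PBS, a ratio of 4.23 (3.41 to 5.23). The Cxcl3 ratio in all other kept cells was 3.91, so this gap was not confined to neutrophils. Cxcl2 differed less, at 1.52-fold (1.46 to 1.57). Cxcl1, a further CXCR2 ligand, was at 222, 121 and 54.6 CPM in DJ-1 KO OVA, WT OVA and WT PBS, though its log2 ratio of DJ-1 KO OVA over WT OVA ranged from -0.15 to 1.49 over the alternatives. Cxcl10, an interferon-induced attractant of T cells, was the remaining gene past 2-fold, at 104 CPM in DJ-1 KO OVA and 50.1 CPM in WT OVA, and its log2 ratio was -1.74 among cells with 5 to 10% S100a8 and S100a9. Ccl6, a monocyte attractant that mouse neutrophils make in quantity, stood slightly lower, at 2227 CPM in DJ-1 KO OVA and 2749 CPM in WT OVA. Ccl5, usually a lymphocyte product, was past 2-fold lower, with 1 UMI in DJ-1 KO OVA against 145 in WT OVA, 115 of which lay in 5 cells. NK cell markers, at 9.88 CPM in DJ-1 KO OVA neutrophils and 151 CPM in those of WT OVA, moved with it, and their part was not tested.

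Cytokine genes were less uniform. Of 11 with enough UMIs, 3 were past 2-fold higher and 1 past 2-fold lower, and the median log2 ratio was 0.31, beside 0.10 in B cells and 0.60 in all other kept cells. Il1rn (chr2:24336860-24351491), the antagonist of the IL-1 receptor, stood at 2326 CPM (2121 to 2546) in DJ-1 KO OVA, 770 CPM (720 to 822) in WT OVA and 536 CPM (505 to 568) in WT PBS, a knockout ratio of 3.02 (2.70 to 3.38). Il1b differed little beside it, at 1.04-fold (0.998 to 1.08). Csf1, the macrophage growth factor, was at 617 CPM, 192 CPM and 171 CPM in DJ-1 KO OVA, WT OVA and WT PBS, a ratio of 3.22 (2.57 to 4.03). Tnf was at 602 CPM in DJ-1 KO OVA and 235 CPM in WT OVA, but 57 of its 122 UMIs in the knockout lay in 1 cell, and without the richest cell of each library its 2.57-fold gap became 1.72-fold. Il6 was the gene past 2-fold lower, on 3 UMIs in DJ-1 KO OVA against 58 in WT OVA, where 2 cells held 45. Without the largest cells its log2 ratio was 0.24.

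**Figure D2:**
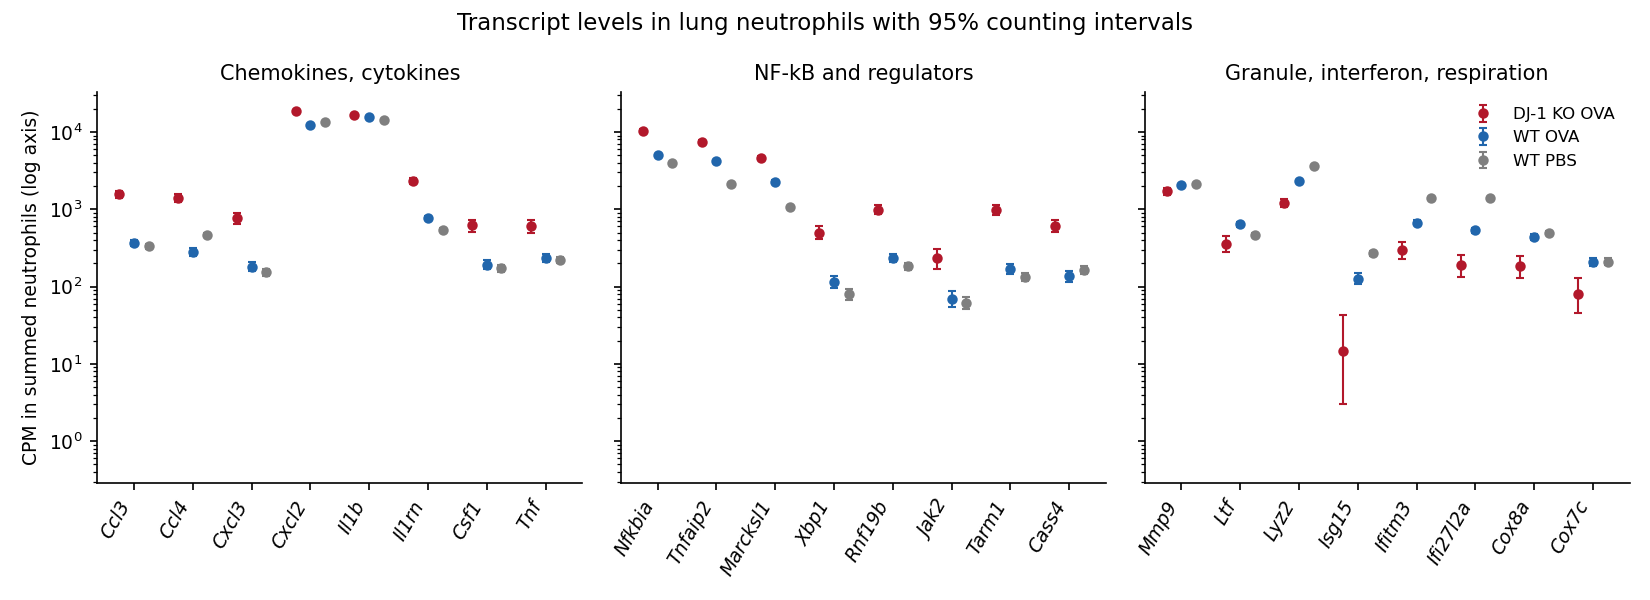
Levels of 24 genes in the summed neutrophils of DJ-1 KO OVA, WT OVA and WT PBS, as CPM on a log axis, 1 library each, with exact Poisson 95% intervals that cover counting error only. Ccl3, Ccl4, Cxcl3, Il1rn, Csf1, Xbp1, Rnf19b, Tarm1 and Cass4 lie higher in DJ-1 KO OVA than in both wild-type libraries, Il1b lies near one level, and Isg15, Ifitm3 and Ifi27l2a lie lowest in DJ-1 KO OVA and highest in WT PBS.

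Receptors for chemoattractants leaned the same way in small steps. All 7 with enough UMIs had ratios above 1, 1 of them past 2-fold, and their median log2 ratio was 0.44, beside -0.28 for the same genes in all other kept cells. Scaling by the median of ratios moves this neutrophil median by -0.23. Ccrl2, a member of the list, did not hold its direction, with log2 ratios from -0.51 to 0.25 over the alternatives. Ptafr, the receptor for platelet-activating factor, stood at 1452 CPM in DJ-1 KO OVA, 606 CPM in WT OVA and 451 CPM in WT PBS, a ratio of 2.39 (2.08 to 2.75). Fpr1 and Fpr2, the formyl peptide receptors, were 1.56-fold (1.22 to 1.97) and 1.46-fold (1.24 to 1.71) higher, and the complement receptor C5ar1 1.23-fold (1.09 to 1.39). Of 14 adhesion and trafficking genes none was past 2-fold, with a median of 0.37. Cd44, the hyaluronan receptor, was at 3561 CPM in DJ-1 KO OVA, 1962 CPM in WT OVA and 1571 CPM in WT PBS. The β2 integrin gene Itgb2 was at 405 CPM in DJ-1 KO OVA and 488 CPM in WT OVA, a ratio of 0.83 (0.650 to 1.05).

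Many targets of NF-kB stood higher. Of 20 such genes with enough UMIs, 16 had ratios above 1 and 1 was past 2-fold, and their median log2 ratio was 0.73, beside 0.39 in B cells and -0.07 in all other kept cells. Nfkbia, the inhibitor that NF-kB itself induces, stood at 10371 CPM in DJ-1 KO OVA, 5005 CPM in WT OVA and 4008 CPM in WT PBS, a knockout ratio of 2.07 (1.97 to 2.18). Tnfaip3, which encodes the feedback enzyme A20, was at 3141, 1772 and 1088 CPM in that order. Tnfaip2 was at 7477 CPM in DJ-1 KO OVA, 4270 CPM in WT OVA and 2122 CPM in WT PBS, and Marcksl1 at 4568, 2285 and 1054 CPM, just short of 2-fold. Tnfaip3, Tnfaip2 and Marcksl1 thus stood highest in DJ-1 KO OVA and lowest in WT PBS. The NF-kB subunit genes themselves were not uniform, with Nfkb1 at 1.83-fold (1.25 to 2.62), Nfkb2 at 0.971-fold (0.563 to 1.59) and Relb at 0.937-fold (0.446 to 1.79).

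Survival genes had a median of 0.50 over 13 genes, with 3 past 2-fold higher, beside 0.23 in B cells and 0.16 in all other kept cells. Mcl1, the short-lived survival protein of neutrophils, was at 4845 CPM in DJ-1 KO OVA, 3420 CPM in WT OVA and 2749 CPM in WT PBS. The 3 past 2-fold were Bcl2l1 at 2.41-fold (1.47 to 3.84) and the near-identical copies Bcl2a1a at 2.67-fold and Bcl2a1d at 2.35-fold, whose reads may be split between copies. Among cells with 5 to 10% S100a8 and S100a9 the log2 ratio of Bcl2a1d was -0.050. Of 19 immediate early genes 1 was past 2-fold higher and 4 past 2-fold lower. Ier3, a stress-induced gene, was at 1496 CPM in DJ-1 KO OVA and 576 CPM in WT OVA, a ratio of 2.60 (2.26 to 2.98). Junb and Dusp1, at 12568 and 8425 CPM in the knockout, were 1.55-fold and 1.51-fold higher. Fosb, Jun, Atf3 and Klf4 were the lower ones, and in WT OVA single cells held 102 of 486 UMIs of Fosb, 60 of 307 of Jun, 72 of 216 of Atf3 and 65 of 137 of Klf4. Among cells with 800 to 1600 UMIs the log2 ratio turned to 0.50 for Jun and 0.24 for Klf4.

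Receptors that sense microbes and receptors that carry activating or inhibiting motifs were also shifted. Nlrp3, the inflammasome sensor, was at 3052 CPM in DJ-1 KO OVA, 1686 CPM in WT OVA and 1283 CPM in WT PBS, 1.81-fold (1.65 to 1.98) higher in the knockout than in WT OVA. Over 14 pattern recognition and inflammasome genes the median was 0.42, with Clec4n the 1 member past 2-fold higher, at 2.75-fold (1.64 to 4.53). Cd300lf, a lipid-binding inhibitory receptor, stood at 1457 CPM, 646 CPM and 499 CPM in DJ-1 KO OVA, WT OVA and WT PBS, a ratio of 2.26 (1.96 to 2.59). Clec12a, an inhibitory receptor for uric acid crystals, was 2.74-fold (1.83 to 4.05) higher. Against these, Tyrobp, the adaptor DAP12 through which many activating receptors signal, was at 1353 CPM in DJ-1 KO OVA, 3108 CPM in WT OVA and 3855 CPM in WT PBS, 0.435 (0.384 to 0.492) of the WT OVA level. Tyrobp was at 0.364 of the WT OVA level in all other kept cells as well. Fcer1g, the related Fc receptor adaptor, was at 988, 1485 and 1959 CPM in the same order. Over the 15 Fc and paired receptor genes 2 were past 2-fold higher and 1 past 2-fold lower. Fcgr2b, the inhibitory Fc receptor, missed the minimum of 50 UMIs with 36 in DJ-1 KO OVA against 13 in WT OVA, and its share of cells thinned to 500 UMIs was 10.1%, 0.475% and 0.699% in DJ-1 KO OVA, WT OVA and WT PBS, beside 3.09%, 5.12% and 3.83% of B cells.

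The 12 genes with the highest ratio were chosen by rank among 1180 genes with at least 100 UMIs, and their values are given as a description. They were Tarm1, Ccl4, Cass4, Xbp1, Ccl3, Cxcl3, Rnf19b, Ager, Zfp36l1, Siglece, Jak2 and Sla, between 3.30-fold and 5.77-fold higher. Tarm1 (chr7:3486499-3502754), an activating receptor of mouse neutrophils, stood at 983 CPM in DJ-1 KO OVA, 170 CPM in WT OVA and 134 CPM in WT PBS. With every cell thinned to 500 UMIs, 36.5% of DJ-1 KO OVA neutrophils held a Tarm1 UMI, against 11.7% in WT OVA and 7.69% in WT PBS, and 0 B cells did in each library, which allows up to 1.03%, 0.334% and 0.479% of them. Unthinned, the neutrophil shares were 53.9%, 23.3% and 32.0%. Tarm1 was also 4.95-fold higher in all other kept cells. Xbp1 (chr11:5520641-5525993), a transcription factor of the unfolded protein response, was at 499 CPM, 114 CPM and 79.0 CPM in DJ-1 KO OVA, WT OVA and WT PBS, and at 1.69-fold in all other kept cells. Cass4, a focal adhesion scaffold, was at 607, 135 and 164 CPM, and Rnf19b, a ubiquitin ligase, at 988, 237 and 184 CPM. Siglece, an inhibitory sialic acid receptor, was at 627 CPM in DJ-1 KO OVA, 187 CPM in WT OVA and 142 CPM in WT PBS. Jak2, the kinase behind the G-CSF and GM-CSF receptors, was at 232, 69.4 and 60.8 CPM. Cish, a gene that STAT5 induces downstream of such receptors, was at 104 CPM, 25.5 CPM and 9.10 CPM on 21, 29 and 19 UMIs. Ager, a marker of alveolar type 1 cells, had 77 of its 84 DJ-1 KO OVA UMIs in 1 cell, and was 1.36-fold higher without the richest cells. Of these 12, 9 had ratios above 1 in all other kept cells and 3 were past 2-fold there.

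The genes at the low end of the ranking were Isg15, Camp, Timm10b, Hspa4, Fam76a, Pofut2, Supt4a, Rhov, Gngt2, Ifi27l2a, D8Ertd738e and Rab5c, between 2.54-fold and 8.54-fold lower. In all other kept cells 9 of them had ratios below 1 and 3 were past 2-fold lower. Timm10b was at 34.6 CPM in DJ-1 KO OVA, 151 CPM in WT OVA and 167 CPM in WT PBS. Isg15 (chr4:156199424-156200818), a ubiquitin-like protein induced by interferon, held 3 UMIs in DJ-1 KO OVA, 144 in WT OVA and 559 in WT PBS, or 14.8 CPM (3.06 to 43.3), 127 CPM (107 to 149) and 268 CPM (246 to 291). The knockout level was 0.117 (0.0239 to 0.349) of that in WT OVA, beside 0.660 in all other kept cells. Ifi27l2a was at 188 CPM in DJ-1 KO OVA, 533 CPM in WT OVA and 1399.5 CPM in WT PBS. Ifitm3, which restricts virus entry, was at 296, 672 and 1389 CPM. These 3 genes had their lowest level in DJ-1 KO OVA and their highest in WT PBS. The interferon list as a whole did not move one way, with 3 of 16 genes past 2-fold higher, 3 past 2-fold lower and a median of 0.12, or -0.11 when scaled by the median of ratios. Gbp2 at 2.58-fold (1.48 to 4.35) and Irf7 at 2.06-fold (1.30 to 3.19) were among the higher ones. Rsad2 was the other, on 29 of 49 DJ-1 KO OVA UMIs from 1 cell and at 0.929-fold without the richest cells.

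Genes of mitochondrial respiration stood lower in DJ-1 KO OVA. Of 18 oxidative phosphorylation genes 17 had ratios below 1, 3 of them past 2-fold lower, and the median log2 ratio was -0.68, beside 0.01 in B cells and 0.11 in all other kept cells. Cox8a, a subunit of cytochrome c oxidase, was at 183 CPM in DJ-1 KO OVA, 437 CPM in WT OVA and 497 CPM in WT PBS, 0.418 (0.291 to 0.585) of the WT OVA level. Cox7c was at 79.0, 207 and 210.2 CPM and Uqcrh, a complex III subunit, at 119, 243 and 261 CPM in the same order. The wild-type libraries lay close together for these genes. Atp5a1 was the exception, at 1.49-fold (0.935 to 2.29), with log2 ratios from -0.74 to 0.89 over the alternatives. Each gene rests on few UMIs, 37 for Cox8a and 16 for Cox7c in the knockout.

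Genes of glycolysis and hypoxia had a median of 0.19 over 18 genes, or -0.04 when scaled by the median of ratios, beside 0.32 in all other kept cells. Of these, 13 had ratios above 1 and 5 below, with 2 past 2-fold higher and 2 past 2-fold lower. Ero1l, an oxidase of the endoplasmic reticulum, was at 128 CPM in DJ-1 KO OVA and 38.7 CPM in WT OVA, a ratio of 3.32 (1.96 to 5.51). Slc2a1, the glucose transporter GLUT1, was at 257 CPM in DJ-1 KO OVA and 119 CPM in WT OVA, while Slc2a3, which encodes GLUT3, was at 198 CPM in DJ-1 KO OVA and 400 CPM in WT OVA. Gapdh was at 291 CPM, 525 CPM and 924 CPM in DJ-1 KO OVA, WT OVA and WT PBS. Redox genes are of interest because DJ-1 is a redox-sensitive protein. None of 16 antioxidant genes was past 2-fold, and their median was -0.03. Slc7a11, the cystine importer, was at 2133 CPM in DJ-1 KO OVA, 1247 CPM in WT OVA and 1498 CPM in WT PBS, 1.71-fold (1.53 to 1.91) higher in the knockout than in WT OVA. Prdx5 and Txn1, which reduce peroxides and protein disulfides, were at 0.550 (0.445 to 0.674) and 0.608 (0.521 to 0.706) of the WT OVA level. Of 7 NADPH oxidase genes none was past 2-fold, and Cybb, the catalytic subunit, was at 173, 320 and 412 CPM in DJ-1 KO OVA, WT OVA and WT PBS. Park7 held 2 UMIs in DJ-1 KO OVA, 26 in WT OVA and 63 in WT PBS, or 9.88 CPM (1.20 to 35.7), 22.8 CPM (14.9 to 33.5) and 30.2 CPM (23.2 to 38.6). The neutrophil ratio for the knockout was 0.432 (0.0497 to 1.73), which these counts do not separate from 1, and in all other kept cells it was 0.200. Tags lying beyond whatever segment was deleted would still be counted, so this checks the genotype only in part.

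Specific granule genes stood lower, and some of them came from few cells. All 11 with enough UMIs had ratios below 1, with Camp and Itgb2l past 2-fold lower. The median log2 ratio was -0.47, beside -0.91 in B cells and -1.06 in all other kept cells. With cells thinned to 500 UMIs, 26.1%, 14.5% and 8.47% of B cells in DJ-1 KO OVA, WT OVA and WT PBS held a UMI of the list. For Camp, Ngp, Ltf and Lcn2 alone these were 1.37%, 1.67% and 0.958%. Not all of them held their direction. Chil3 was at -0.065 on the log2 scale, with -0.29 to 2.32 over the alternatives. One WT OVA cell held 419 of its 735 UMIs there. Chil3 was found in 81 of 178 knockout neutrophils against 103 of 631 in WT OVA, and whether these UMIs arose in neutrophils was not tested. Mmp8 ranged from -0.85 to 0.13, while Camp and Itgb2l stayed negative throughout. Mmp9, a gelatinase made late in maturation, differed little, at 1704 CPM in DJ-1 KO OVA, 2054 CPM in WT OVA and 2129 CPM in WT PBS. Lyz2, which encodes lysozyme, was at 1205, 2310 and 3639 CPM in that order. Camp, Ngp and Ltf, made in the middle stage of granule formation, came from a small group of cells. Camp UMIs occurred in 4 DJ-1 KO OVA cells, 27 WT OVA cells and 22 WT PBS cells, and 51 of the 54 in the knockout lay in 1 cell. One cell likewise held 213 of 300 Ngp UMIs and 71 of 72 Ltf UMIs in DJ-1 KO OVA. Lcn2, by contrast, was found in 93 DJ-1 KO OVA cells, and over the whole list the richest 10% of cells held 37.1%, 48.7% and 40.5% of the UMIs in DJ-1 KO OVA, WT OVA and WT PBS. Protease inhibitors of neutrophils had a median of -0.74 over 6 genes, with Slpi at 1328, 2078 and 2467 CPM and Wfdc21 at 1052, 1872 and 2235 CPM in DJ-1 KO OVA, WT OVA and WT PBS.

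**Figure D3:**
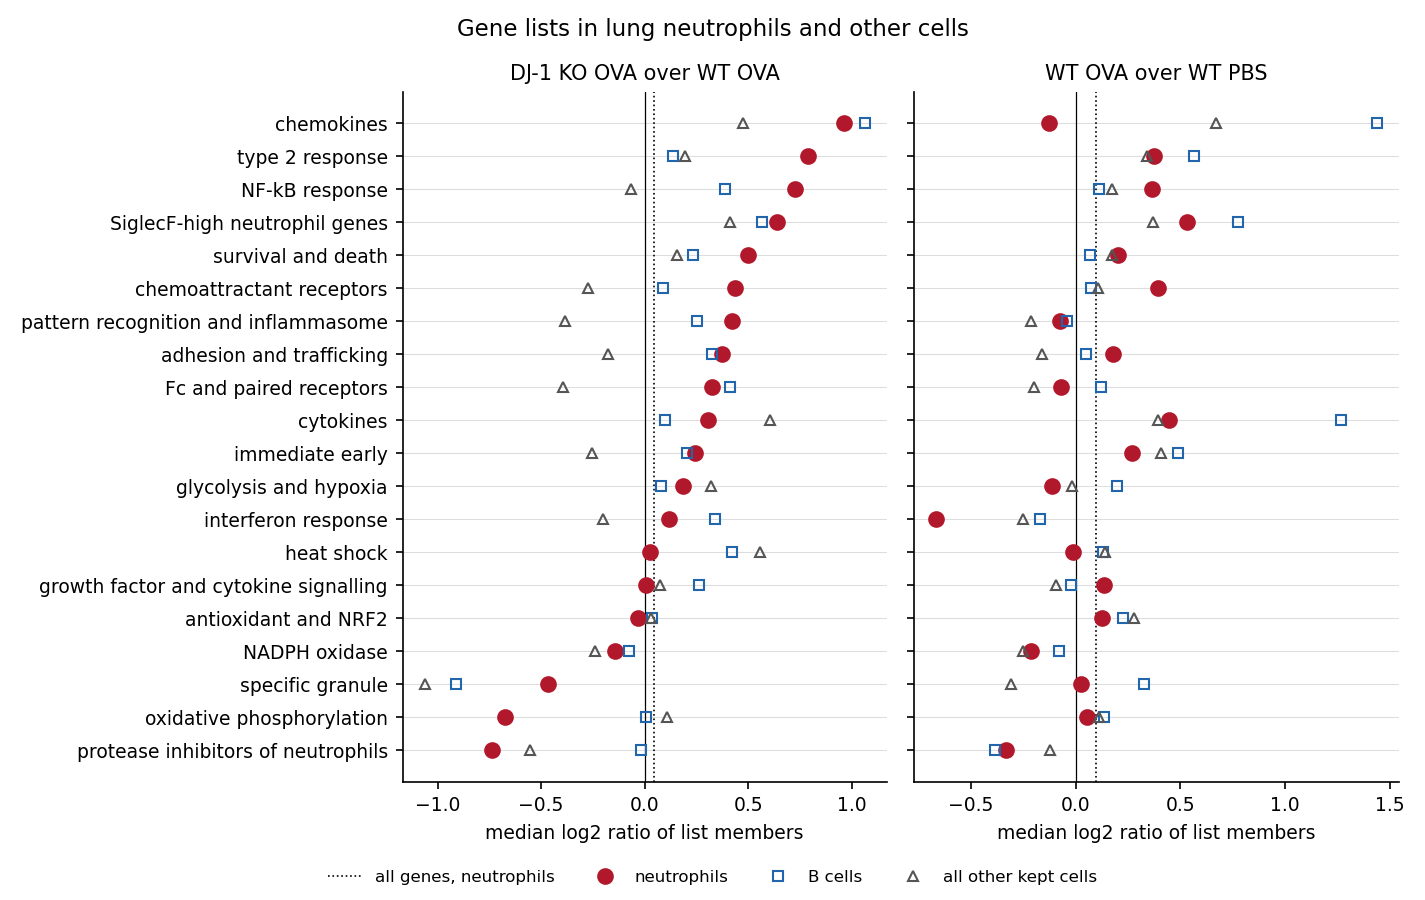
Median log2 ratio of the members with at least 50 UMIs, for the 20 gene lists with 5 or more such members in both comparisons, DJ-1 KO OVA over WT OVA on the left and WT OVA over WT PBS on the right. Filled circles are neutrophils, squares B cells and triangles all other kept cells, and the dotted line is the median of all genes in neutrophils. On the left the neutrophil medians run from -0.74 for protease inhibitors and -0.68 for oxidative phosphorylation to 0.73 for NF-kB response and 0.96 for chemokines, and on the right the interferon list lies at -0.66.

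Genes linked to type 2 allergic responses and to the SiglecF-high neutrophils described in mouse tumours and airways gave a mixed picture. All 9 SiglecF-high genes with enough UMIs had ratios above 1, 3 of them past 2-fold, but these were Ccl3, Csf1 and Xbp1, which other lists or the ranking already hold. Cd274, Ctsb and Icam1 reached log2 ratios as low as -0.33, -0.35 and -0.23 over the alternatives. Siglecf itself had 1 UMI in DJ-1 KO OVA, 9 in WT OVA and 16 in WT PBS. Among type 2 genes Arg2, the mitochondrial arginase, was at 1007 CPM, 523 CPM and 403 CPM, and Il4ra, the IL-4 receptor chain, at 138, 115 and 75.2 CPM in the same order. Retnla, the only one past 2-fold, was at 454 CPM in DJ-1 KO OVA, 51.0 CPM in WT OVA and 0 in WT PBS, but B cells of those libraries held 2686, 802 and 1.71 CPM, so it is not read as neutrophil expression. The median log2 ratios of the remaining lists were -0.20 for cycling and precursor genes (2 tested), 0.14 for granulopoiesis transcription factors (3 tested), 0.03 for gelatinase granule genes (4 tested), 0.25 for lipid mediators (3 tested), 0.57 for MHC class II (2 tested), 0.00 for growth factor and cytokine signalling (10 tested), 0.03 for heat shock (7 tested) and -0.27 for genes of Parkinson disease (2 tested). Azurophil granule genes had none with enough UMIs.

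Cell by cell, the NF-kB difference was spread over most of the population, while Ccl3, Ccl4 and Cxcl3 were found in a part of it. These 3 chemokines are among the 12 genes with the highest knockout ratio, so their shares are a description and no separate support. With each cell thinned to 500 UMIs, a neutrophil held a mean of 20.4 NF-kB UMIs in DJ-1 KO OVA, 13.3 in WT OVA and 9.12 in WT PBS, with medians of 20.5, 13 and 8. At least 1 UMI of Ccl3, Ccl4 or Cxcl3 was found in 39.9% (32.6 to 47.5) of DJ-1 KO OVA neutrophils, 20.3% (17.2 to 23.6) in WT OVA and 20.8% (17.5 to 24.4) in WT PBS, beside 3.09%, 1.45% and 0.639% of B cells. Unthinned, these shares were 53.4%, 36.1% and 45.3% of neutrophils. Cells with at least 3 such UMIs made up 20.2%, 4.91% and 2.97% in the same order. The richest 10% of DJ-1 KO OVA cells held 64.9% of these UMIs. For the interferon list the mean was 2.86 UMIs in DJ-1 KO OVA, 3.05 in WT OVA and 4.63 in WT PBS.

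**Figure D4:**
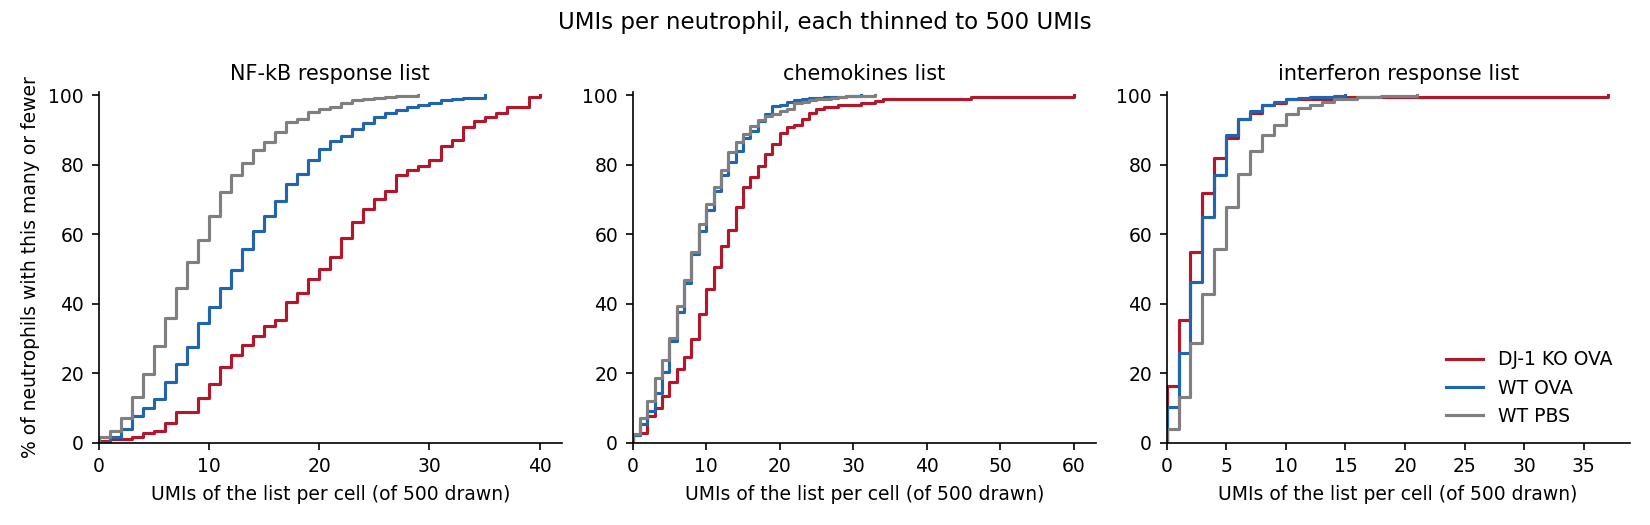
Cumulative percentage of neutrophils holding a given number of UMIs or fewer of 3 gene lists, each cell thinned to 500 UMIs, in DJ-1 KO OVA (178 cells), WT OVA (631) and WT PBS (572). The NF-kB curves lie apart over most of their length, with medians of 20.5, 13 and 8 UMIs, and the interferon curve of WT PBS lies to the right of the others.

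Within each library, cells with less S100a8 and S100a9 held more NF-kB transcripts. Spearman's coefficient between the thinned NF-kB UMIs and the S100a8 and S100a9 share was -0.28 (178 cells, DJ-1 KO OVA), -0.34 (631 cells, WT OVA) and -0.41 (572 cells, WT PBS), as a description of cells that share a library. Both are parts of one total, so the share of one leaves less room for the other. The cells were also chosen by their S100a8 and S100a9 share, at 3% or more, so the coefficients cover that range only. Since a larger share of DJ-1 KO OVA neutrophils was low in S100a8 and S100a9, the genes were compared within ranges of that share. Between 5 and 10%, with 99 cells in DJ-1 KO OVA, 186 in WT OVA and 61 in WT PBS, the NF-kB median of the knockout over WT OVA was 0.22 in place of 0.73, and that of survival genes 0.17 in place of 0.50. The chemokine median there was 0.85 and that of oxidative phosphorylation -0.74, while the specific granule median was 0.05.

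The size of the Ccl3 difference varied with the S100a8 and S100a9 range. At 3 to 5% it was at 3478 CPM in 42 DJ-1 KO OVA cells, 239 CPM in 42 WT OVA cells and 674 CPM in 36 WT PBS cells. At 5 to 10% it was at 946 CPM, 525 CPM and 517 CPM, a ratio of 1.80 (1.38 to 2.35), and at 10 to 20% the 35 DJ-1 KO OVA cells held 450.0 CPM against 368 CPM in WT OVA and 409 CPM in WT PBS. Ccl4 turned direction between the ranges. At 3 to 5% it was at 2043 CPM in DJ-1 KO OVA, 34.1 CPM in WT OVA and 888 CPM in WT PBS. The knockout was 59.8-fold (24.9 to 188) above WT OVA there, on only 5 WT OVA UMIs. At 5 to 10% it was 3.55-fold (2.81 to 4.48) higher, at 1667, 470 and 1502 CPM in the same order. At 10 to 20% Ccl4 had 1 UMI in the 35 DJ-1 KO OVA cells against 134 UMIs in the 325 WT OVA cells. The ratio there was 0.0993 (0.00249 to 0.563). Csf1 was 7.91-fold, 2.88-fold and 0.705-fold (0.278 to 1.49) in the 3 ranges, and Cxcl3 10.7-fold, 6.05-fold and 2.70-fold. Tarm1 stood higher in the knockout in all 3 of these ranges, at 1064, 68.3 and 72.9 CPM at 3 to 5%, 1057, 204 and 102 CPM at 5 to 10%, and 775, 184 and 163 CPM at 10 to 20% in DJ-1 KO OVA, WT OVA and WT PBS. Xbp1 stayed between 2.47-fold and 4.23-fold higher in the knockout over the 3 ranges. Il1rn was 6.78-fold, 1.97-fold and 2.07-fold higher from the low to the high range, and Nfkbia 2.82-fold, 1.85-fold and 1.61-fold. Ifitm3 was lower in the knockout throughout, at 0.398, 0.330 and 0.754 of the WT OVA level, the last with an interval of 0.449 to 1.20.

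**Figure D5:**
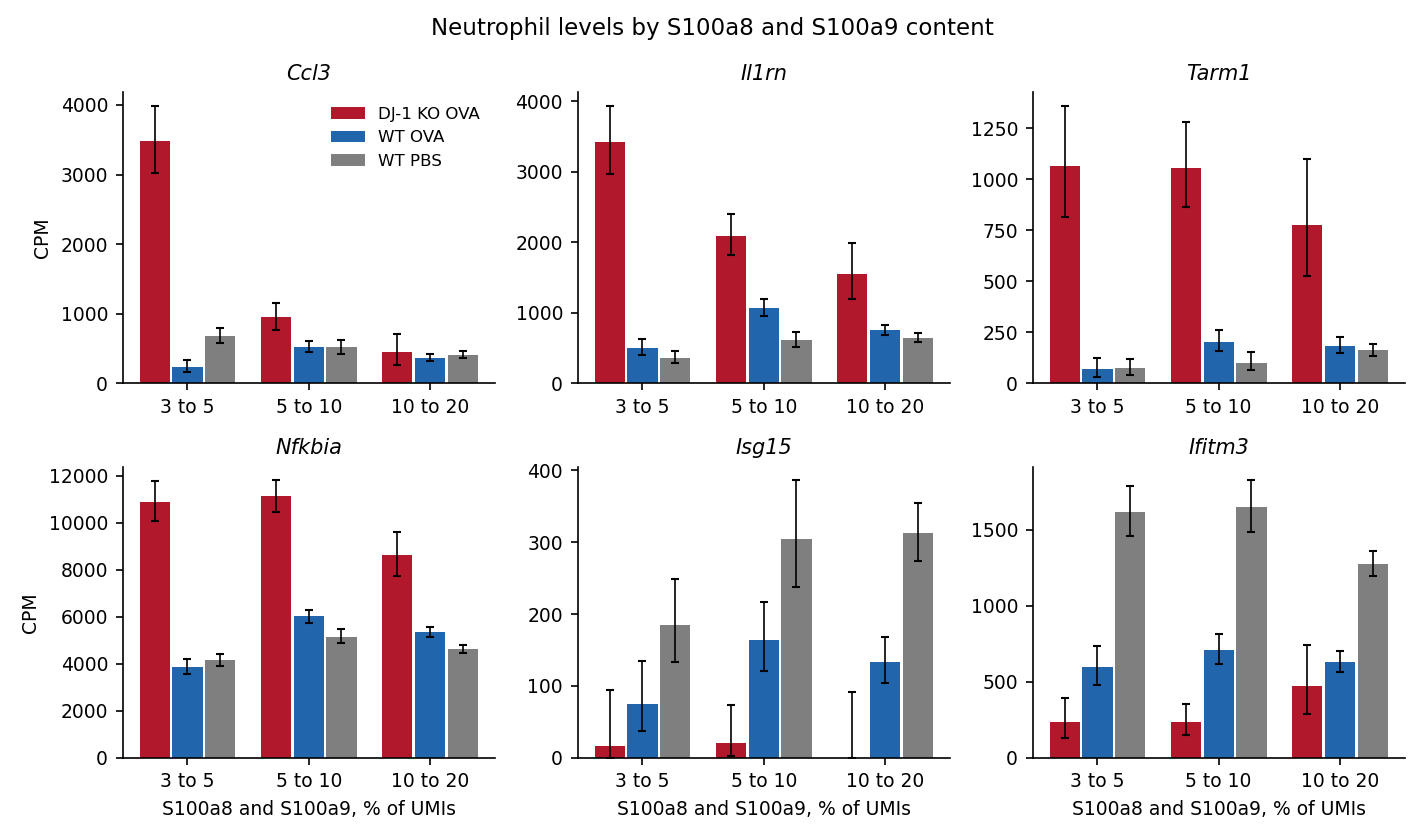
Levels of 6 genes in neutrophils summed within 3 ranges of S100a8 and S100a9 content, as CPM of those cells, for DJ-1 KO OVA, WT OVA and WT PBS, with exact Poisson 95% intervals. Ccl3 in DJ-1 KO OVA is at 3478 CPM in the lowest range and 450.0 CPM in the highest, while Tarm1 lies above both wild-type libraries in all 3.

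Allergen was then set beside buffer within wild-type lung, with the same WT OVA library as above serving here too. Of 4548 genes with at least 50 UMIs, 140 (3.08%) were at least 2-fold higher in WT OVA and 51 (1.12%) at least 2-fold lower, 191 (4.2%) in all, with a median log2 ratio of 0.10. Over all 4548 genes, 2724 had ratios above 1 and 1824 below 1. Interferon-induced genes were the clearest group. Of 26 with enough UMIs, 23 had ratios below 1, 6 were past 2-fold lower and none past 2-fold higher, and their median log2 ratio was -0.66, beside -0.17 in B cells and -0.25 in all other kept cells. The levels of Isg15, Ifi27l2a and Ifitm3 given above put WT OVA at 0.473 (0.391 to 0.569), 0.381 (0.349 to 0.416) and 0.484 (0.446 to 0.524) of WT PBS. Ifitm2 was at 1334 CPM in WT OVA and 2328 CPM in WT PBS. Oasl1 was at 41.3 CPM in WT OVA and 80.4 CPM in WT PBS. Rsad2, an antiviral enzyme also called viperin, was at 112 CPM in WT OVA and 215 CPM in WT PBS. Its direction was not steady, with log2 ratios from -1.68 to 1.75 over the alternatives. Among cells of like size, with 800 to 1600 UMIs, only 24 WT PBS neutrophils remained. There the list median was -0.60, while Isg15 turned to 0.53 on the log2 scale.

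NF-kB targets stood higher in WT OVA, with 17 of 20 ratios above 1, 2 past 2-fold and a median of 0.37. The 2 were Tnfaip2 at 2.01-fold (1.93 to 2.10) and Marcksl1 at 2.17-fold (2.05 to 2.30). Pim1, a survival kinase induced by cytokines, was at 7025 CPM in WT OVA and 3747 CPM in WT PBS, a ratio of 1.88 (1.82 to 1.93), within a survival median of 0.20 over 16 genes with none past 2-fold. Fpr2 was at 664 CPM in WT OVA and 353 CPM in WT PBS, and Icam1, an adhesion molecule, at 149 CPM in WT OVA and 59.8 CPM in WT PBS, though Icam1 turned to -0.27 on the log2 scale among cells with 5 to 10% S100a8 and S100a9. Immediate early genes had a median of 0.27 over 19 genes with none past 2-fold. Ccl3 and Cxcl3 differed little, at 1.11-fold (0.985 to 1.26) and 1.19-fold (0.993 to 1.42), and Ccl4 was lower, at 0.611 (0.537 to 0.694). Chemokines had a median of -0.13 over 9 genes, where B cells had 1.44 and all other kept cells 0.67.

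At the high end of the WT OVA ranking stood Hopx, Isyna1, Icosl, Orai2, Rogdi, Slc25a28, Borcs6, Adpgk, Marcksl1, Tnfaip2, Rab8b and Cyth1, between 1.93-fold and 2.78-fold. Rab8b, a vesicle transport GTPase, was at 630.0 CPM in WT OVA and 319 CPM in WT PBS, and Cyth1, which regulates integrin adhesion, at 582 CPM in WT OVA and 301 CPM in WT PBS. Hopx had 83 of its 135 WT OVA UMIs in 1 cell and was 1.19-fold higher without the richest cells. At the low end stood Stfa1, Ifi27l2a, Lair1, Hist1h2bc, Ifit1, Eno1, Zbp1, Ppp1r12a, Isg15, Ifi27, Ifitm3 and Dph3, of which Ifi27l2a, Ifit1, Zbp1, Isg15, Ifi27 and Ifitm3 are known as interferon-induced genes. Stfa1, a cystatin-type protease inhibitor with near-identical copies, was at 36.9 CPM in WT OVA and 171 CPM in WT PBS. Its WT PBS UMIs lay in 30 of 572 cells, and among cells with 5 to 10% S100a8 and S100a9 its log2 ratio turned to 2.21. Glycolysis genes differed little as a list, at -0.11 over 21 genes, though Gapdh was at 0.568 (0.517 to 0.623) and Eno1 at 0.462 (0.379 to 0.561) of WT PBS. Gsr, glutathione reductase, was 1.44-fold (1.37 to 1.52) higher and Prdx5 at 0.682 (0.635 to 0.733), within an antioxidant median of 0.12 over 20 genes. Oxidative phosphorylation stood at 0.05 over 18 genes and specific granule genes at 0.03 over 11, both within the shift that scaling by the median of ratios makes. The other medians were 0.16 for gelatinase granule genes (4 tested), -0.33 for protease inhibitors (9), 0.64 for cycling genes (2), 0.16 for granulopoiesis transcription factors (3), 0.18 for adhesion (14), 0.39 for chemoattractant receptors (7), 0.45 for cytokines (12), -0.21 for NADPH oxidase (7), -0.07 for pattern recognition (17) and for Fc and paired receptors (15), 0.14 for growth factor signalling (10), -0.12 for lipid mediators (5), 0.38 for type 2 genes (5), 0.53 for SiglecF-high genes (9), -0.79 for MHC class II (5), -0.014 for heat shock (9) and -0.21 for genes of Parkinson disease (3). Few members of these lists were past 2-fold, at most 2 in either direction for any of them.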

How the data were processed

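RNA was counted with the 10x 3′ v3 kit, per the labels' protocols. The authors deposited raw UMI counts per gene and barcode for 27998 genes, with 3.1.0 as the software version per the file headers, and with Cell Ranger and STAR on mm10 per the submitters' processing notes. The deposited libraries held 17339386, 24438516 and 26548669 UMIs over 4666, 6406 and 4556 barcodes in DJ-1 KO OVA, WT OVA and WT PBS. WT PBS was grouped by its treatment label, although its title mentions ovalbumin.

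Neutrophil UMIs (202495, 1138059 and 2088604 in that order) were summed per library and scaled to CPM. With 1 library per group no model was fitted, and a gene was counted past 2-fold from at least 50 UMIs over both libraries. Scaling by the median of ratios moves every log2 ratio by -0.23 (DJ-1 KO OVA over WT OVA) and -0.15 (WT OVA over WT PBS). The 27 lists hold 372 genes, 368 of them found (Cebpd, Il36g, Mx2 and Clec7a were not), and 16 marker lists were used. The members, lists and rules were chosen with earlier results of these data known. Named genes are the list genes, markers, the 20 most abundant genes and the 12 highest and 12 lowest ratios per comparison, ranked from at least 100 UMIs and a level not below that of other kept cells. RefSeq's GRCm38.p6 annotation gave coordinates and matched 489 of 491 named genes. The ratio intervals were also run on pooled counts simulated as Poisson draws, the model they assume. They held the true ratio for 95.6% of 2826 genes (DJ-1 KO OVA over WT OVA), where 3.12% of unchanged genes passed 2-fold. For WT OVA over WT PBS they held it for 96.2% of 4554 genes, where 0.390% did. The simulation had no differences between cells or libraries, so it checks the calculation and not the spread of these data. Thinning used seed 1. Of 22 alternatives, 4 were chosen after seeing the data (a 5 to 10% S100a8 and S100a9 range, 800 to 1600 UMIs, without the largest cells, and without cells with a Rag1 or Dntt UMI). Intervals were computed with SciPy 1.17.1 and Scrublet scores with scanpy 1.11.5, under Python 3.11.15 with pandas 2.3.3 and NumPy 2.4.6.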

Additional observations from a re-analysis of the deposited data

How the results depend on the processing

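With 1 library per group no replicate could be left out. No paired analysis was possible because each group is 1 library and carries no replicate number that pairs it with another. The order of the shares, DJ-1 KO OVA below WT OVA below WT PBS, held under each alternative for shares. The share of DJ-1 KO OVA was 1.93% and that of WT OVA 9.46% with at least 500 genes, and DJ-1 KO OVA was at 3.06% with at least 5% S100a8 and S100a9 and at 4.92% without cells with a Rag1 or Dntt UMI. Counts past 2-fold depended on depth and on which cells entered, so a count is not a measure of the size of the difference. With a minimum of 1, 20 or 100 UMIs per gene in place of 50, 1682, 303 or 68 genes were higher and 5261, 734 or 138 lower (DJ-1 KO OVA over WT OVA), and 2678, 477 or 57 higher and 2048, 180 or 17 lower (WT OVA over WT PBS). Thinned cells gave 48 higher and 74 lower in the knockout comparison and 34 higher and 21 lower in the allergen comparison. In the knockout comparison, 5 to 10% S100a8 and S100a9 gave 56 higher and 138 lower, 800 to 1600 UMIs gave 70 higher and 91 lower, scaling by the median of ratios gave 70 higher, leaving out the largest cells gave 143 lower and a limit of 1% S100a8 and S100a9 gave 483 lower. In the allergen comparison, the number higher was 345 at a limit of 1%, 76 at 5%, 45 between 5 and 10%, 72 without the largest cells and 229 at 800 to 1600 UMIs. The number lower was 104 with the median of ratios, 81 with S100a8 and S100a9 out of the total and 95 with cells weighted alike.

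The log2 ratio of DJ-1 KO OVA over WT OVA ranged over the alternatives from 1.91 to 2.70 for Tarm1, 0.85 to 2.22 for Ccl3, 1.83 to 2.69 for Ccl4, 1.90 to 2.51 for Xbp1, 0.98 to 1.80 for Il1rn, 0.83 to 1.23 for Nfkbia, -3.46 to -2.90 for Isg15 and -1.76 to -1.15 for Cox8a. Between 10 and 20% S100a8 and S100a9 the Ccl4 ratio was below 1, on 1 DJ-1 KO OVA UMI. That range is not among the alternatives. The list medians ranged from 0.69 to 1.59 for chemokines, 0.22 to 0.74 for the NF-kB response, -0.90 to -0.44 for oxidative phosphorylation and -0.69 to 0.05 for specific granule genes. Under at least 1 alternative the sign turned for 114 of 294 named genes and 11 of 26 list medians in the knockout comparison, and for 193 of 331 and 14 of 26 in the allergen comparison. Most of these were small, and the turns given here are those of genes past 2-fold (7 of 67 and 13 of 33) and of list medians past 1.5-fold (0 of 6 and 2 of 3). In the knockout comparison they were Rsad2 (-0.49 with at least 500 genes, -0.064 with at least 5% S100a8 and S100a9), H2-Ab1 (-0.85 with at least 1%), Bcl2a1d (-0.050) and Cxcl10 (-1.74) between 5 and 10%, Il6 (0.24) without the largest cells, and Jun (0.50) and Klf4 (0.24) at 800 to 1600 UMIs. In the allergen comparison the sign turned at a limit of 1% for the MHC class II median (0.91), H2-Aa (0.98) and Hspa1a (0.016), at 5% for Ager (-0.80), and at a Scrublet score of at most 0.25 for Hspa1a (0.98). Between 5 and 10% it turned for the cycling median (-0.10), Ager (-1.96), Icam1 (-0.27), Slc25a28 (-0.11), Stfa1 (2.21) and Tuba1b (-0.012). Without the largest cells it turned for the MHC class II median (0.42), Ager (-0.031), H2-Aa (0.38), Hopx (-0.031) and Hspa1a (1.45). At 800 to 1600 UMIs it turned for the cycling median (-0.044), Ifi27 (0.38), Il1a (-0.16), Isg15 (0.53), Isyna1 (-0.54) and Tuba1b (-1.20), and with thinned cells for Il6 (-0.73). The cause of these turns was not tested. Depth limits the knockout most, where 202495 UMIs put a gene with 3 UMIs at 14.8 CPM.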
